A study of Fragaria vesca with 8 samples.

Results

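The genes described here had lower transcript levels in fruits of the diploid strawberry *Fragaria vesca* upon overexpression of either of the secondary wall regulators *FvVND4c* and *FvMYB46*. They were chosen from the measured levels. For each gene, the count was scaled to CPM, in which the totals of all libraries are equal, and a log2 ratio was formed from the mean CPM of overexpression and of empty vector after adding 0.5 CPM to both. A gene was included when this ratio was at or under -0.8 with *FvVND4c* and also with *FvMYB46*, and when the 4 empty-vector libraries together held over 3 counts. Genes starting on chromosome 5 between 1.9 and 2.1 Mb or on chromosome 4 between 22.6 and 22.9 Mb were left out by position, but no gene there met the rest of the rule. Of 34009 genes in the files, 21666 could be considered and 142 were included. Because these ratios chose the genes, their size is given as a description without a test.

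RNA-seq was performed on fruits of the accession "Yellow Wonder", which were injected with agrobacterium and sampled 7 days later. The groups were *FvVND4c* overexpression (OX), the wild-type empty vector (EV) of the *FvVND4c* experiment, *FvMYB46* OX, and a separate wild-type EV of the *FvMYB46* experiment, with 2 libraries and at least 5 fruits each. All 4 groups share the injection with agrobacterium. The regulators were expressed transiently from the 35S promoter of a plant virus, which is active in most cell types, and which cells of the fruit carried the construct was not measured. The methods call the replicates biological. As how fruits were divided between libraries is not given, the p-values measure the spread between these libraries. In whole fruits, fewer cells of a type cannot be told apart from less RNA per cell.

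VND proteins are NAC transcription factors that switch on the differentiation of water-conducting xylem cells in Arabidopsis, where they act above MYB46. MYB46 in turn activates genes for cellulose, xylan and lignin, the materials of the secondary cell wall. Both are mainly known as activators of transcription. Which pathways the 142 genes belong to could not be read from the data. The files name genes by the identifiers of the *F. vesca* genome annotation only, none of the 34009 identifiers matched the gene table at hand, and the genes are therefore described by identifier, position and level. For the same reason the overexpressed genes themselves and markers of fruit tissue were not checked.

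The libraries held 9765362 to 12845942 counts, so that 3 counts, taken as the level that a count of 0 still allows, stood at 0.234 to 0.307 CPM. This covers counting error only. Replicate 1 of the *FvMYB46* EV stood apart from replicate 2. A chi-square of the 2 libraries divided by its degrees of freedom (genes whose summed count reached 20) came to 16.5, and to 7.57 for *FvVND4c* OX, 2.44 for *FvVND4c* EV and 2.8 for *FvMYB46* OX. Where leaving out this library moved a log2 ratio given below by over 1.5-fold, the value without it is given too.

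The 142 genes took a small part of the transcriptome, and their summed level was lower in every OX library than in every EV library. Their CPM summed to 2113 and 2168 in *FvVND4c* OX fruits, against 6326 and 5896 in the EV fruits of that experiment. In *FvMYB46* OX fruits the sums were 2252 and 1501 CPM, against 9141 and 5404 CPM in EV fruits. The genes FvH4_2g21400 and FvH4_3g19080 alone accounted for 52.6% to 66.1% of these counts in OX libraries and for 61.8% to 72.4% in EV libraries. The remaining 140 genes summed to 952 and 899 CPM in *FvVND4c* OX fruits against 2406 and 2250 CPM in EV fruits, and to 764 and 711 CPM in *FvMYB46* OX fruits against 2522 and 1793 CPM in EV fruits. Most members were thus weakly expressed, with a median of 5.56 CPM over the 4 EV libraries, whereas all 21666 genes considered had a median of 10.8 CPM. By this EV mean, 8 genes were under 1 CPM, 89 were between 1 and 10 CPM, 40 were between 10 and 100 CPM and 5 were above 100 CPM. No member was silent in all 4 OX libraries, as were 0.309% of the genes considered. Counts in every library were found for 132 members (93.0%), against 90.8% of the genes considered. Both are near the share over all genes, so nothing is read from them.

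**Figure D1:**
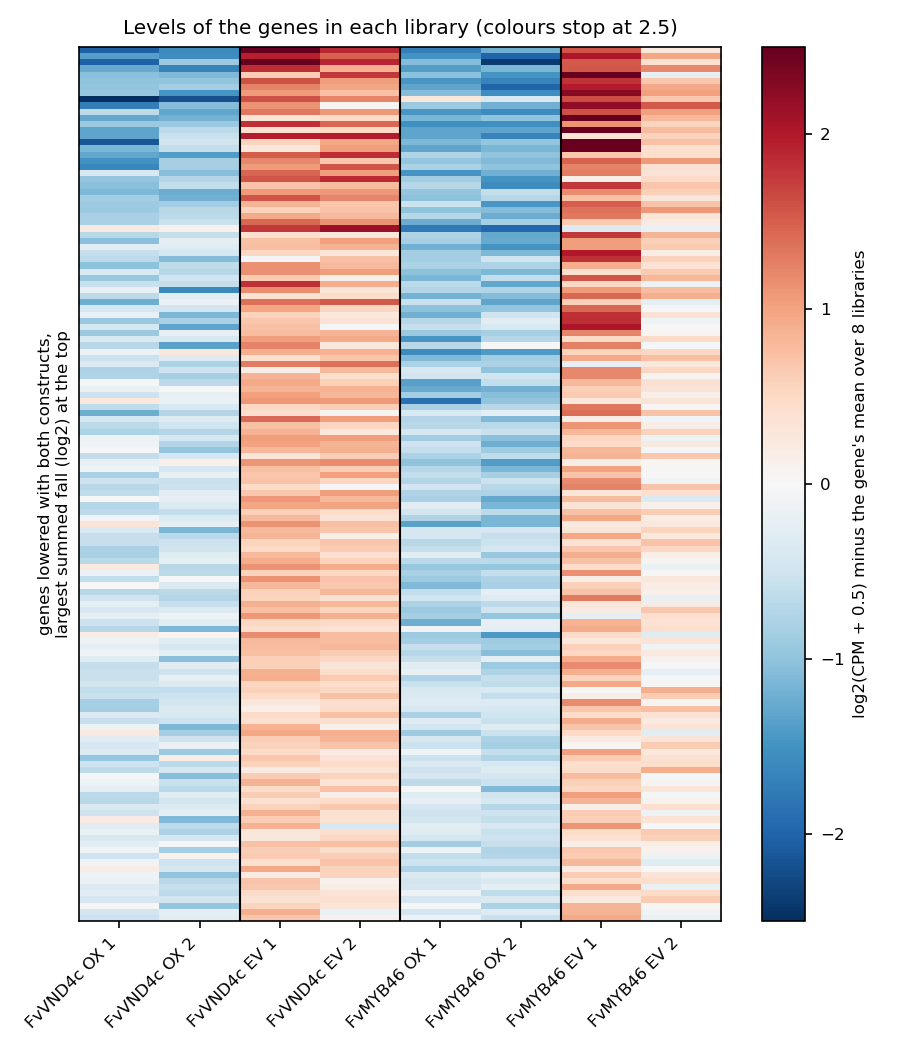
Heat map of log2(CPM + 0.5) minus the gene's mean over the 8 libraries, with 1 row for each of the 142 genes sorted by their summed log2 ratios and 1 column for each library, colours stopping at 2.5. The 4 OX columns are mostly blue and the 4 EV columns mostly red, as the choice of genes requires. *FvMYB46* EV replicate 1 is redder than replicate 2 in 116 of the 142 rows (81.7%). Replicate 1 was likewise the higher for 60.6% of the genes considered and 76.9% of those lowered with *FvVND4c* only.

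Most of the included genes were lowered moderately, and a few strongly. The median log2 ratio was -1.16 with *FvVND4c* and -1.24 with *FvMYB46*, and the lowest ratios were -4.24 and -3.54. The lowest *FvMYB46* ratio rested on *FvMYB46* EV replicate 1, and without that library no member was below -2.72. Over all genes considered the medians were -0.12 and 0.01. Both ratios were at or under -1 for 74 genes, at or under -1.5 for 25 and at or under -2 for 12. The ratio was lower with *FvMYB46* than with *FvVND4c* for 81 genes (57.0%), against 38.3% of the genes considered. This order leaned on the *FvMYB46* EV libraries. The median *FvMYB46* ratio of the members was -1.04 without replicate 1 of that EV and -1.49 without replicate 2. Scaling by TMM (the trimmed mean of M-values) in place of library totals raised the *FvVND4c* ratios by a median of 0.10. Whether the median of -0.12 came from the scaling or from a broad lowering was not tested. Relative to the median of all genes, 113 of the 142 were still at or under -0.8 with *FvVND4c* and all 142 with *FvMYB46*.

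The genes were a minority of those lowered by either construct. A ratio at or under -0.8 was found for 791 genes (3.65% of those considered) with *FvVND4c* and for 1004 genes (4.63%) with *FvMYB46*, so that the 142 made up 18.0% and 14.1% of these, or 0.655% of all genes considered. Both OX libraries were below both EV libraries of their own experiment for 141 of the 142 genes with *FvVND4c* and for 139 with *FvMYB46*, where the same was true of 40.0% and 26.8% of the genes considered. For 138 genes this held in both experiments (12.4% of the genes considered). All 4 OX libraries were below all 4 EV libraries for 122 genes, while 8.70% of the genes considered were so ordered. The rule asks for lower means and so nearly fixes these orders, from which nothing is read. In edgeR fits over 18766 genes, which kept 138 of the members, 60 were called lower with *FvVND4c* (background 1.11%) and 113 with *FvMYB46* (background 3.46%), 53 of them with both. These counts likewise describe the choice. The first was 38 without replicate 1 and 38 without replicate 2 of the *FvVND4c* EV, and the second was 70 or 66 without replicate 1 or 2 of *FvMYB46* OX.

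**Figure D2:**
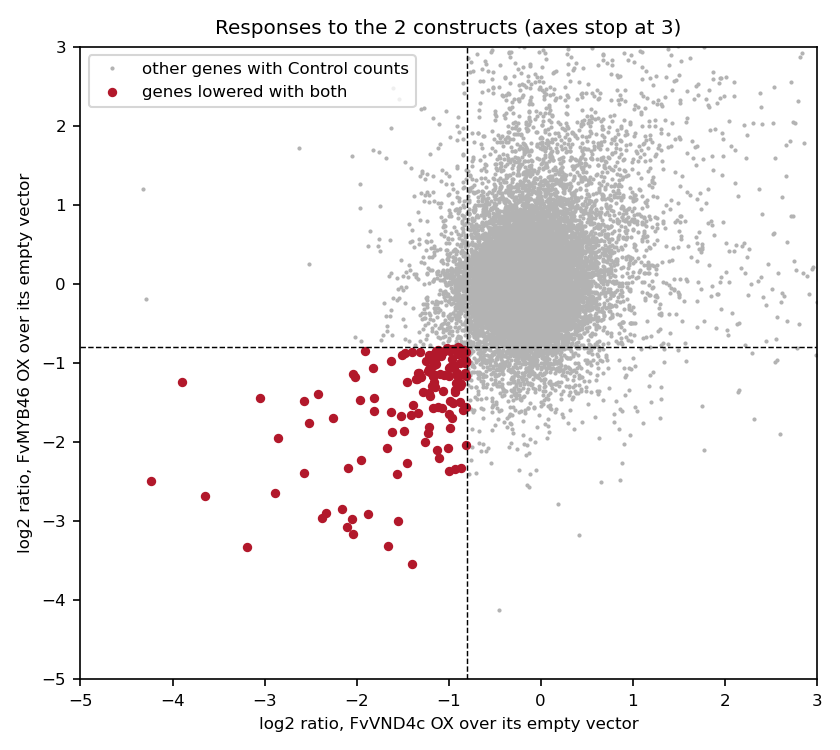
Log2 ratios of mean CPM (plus 0.5) with *FvMYB46*, on the vertical axis, against those with *FvVND4c*, on the horizontal axis, for the 21666 genes considered, with the 142 included genes in red and the threshold of -0.8 as dashed lines. The included genes fill the lower left corner, and most lie between -0.8 and -2 on both axes.

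Close to the threshold the choice was a matter of hundredths. Among genes with at least 1 CPM in both EV groups, FvH4_6g22640 was just included with ratios of -0.89 with *FvVND4c* and -0.80 with *FvMYB46*, and FvH4_6g16230 with -0.81 and -2.04. Just outside were FvH4_1g17390, with ratios of -0.7998 and -1.05, and FvH4_4g22520, with -0.85 and -0.7997. The gene just outside did not stand at lower levels, as FvH4_1g17390 had 35.1 and 28.7 CPM in *FvVND4c* OX fruits against 57.8 and 53.9 CPM in EV fruits. FvH4_6g22640 was near the limit of detection, with 0.602 and 0.102 CPM in *FvVND4c* OX fruits against 0.902 and 1.26 CPM in EV fruits.

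The highest EV level belonged to FvH4_2g21400, on chromosome 2 from 17800149 to 17802240 of the *F. vesca* genome used by the authors. It stood at 883 and 896 CPM in *FvVND4c* OX fruits, against 2987 and 2659 CPM in EV fruits, and at 1141 and 600 CPM in *FvMYB46* OX fruits, against 4673 and 2692 CPM in EV fruits. The groups did not overlap in either experiment, and the log2 ratios were -1.67 and -2.08. Per length of the gene it averaged 4543 TPM, the length-scaled unit of the authors, over the 4 EV libraries, the 12th highest value of all genes listed. This gene was thus among the main transcripts of the injected fruit, and it ranked 7th to 21st by CPM in the EV libraries but only 57th to 167th in the OX libraries. FvH4_3g19080, on chromosome 3 from 12281190 to 12282677, followed at 2348 TPM. It had 279 and 374 CPM in *FvVND4c* OX fruits against 933 and 986 CPM in EV fruits, and 348 and 191 CPM in *FvMYB46* OX fruits against 1947 and 919 CPM in EV fruits. Both genes had their higher *FvMYB46* values in replicate 1, in OX as in EV fruits, and the log2 ratios of FvH4_3g19080 were -1.56 and -2.41, the second being -1.77 without *FvMYB46* EV replicate 1. For FvH4_2g21400 the *FvMYB46* ratio was -1.63 without that library.

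FvH4_7g30080, the next gene by EV level, on chromosome 7 from 21995481 to 21998809, had 200 and 178 CPM in *FvVND4c* OX fruits against 382 and 372 CPM in EV fruits, and 122 and 118 CPM in *FvMYB46* OX fruits against 261 and 277 CPM in EV fruits. Its replicates lay close together, and its log2 ratios were -1.0 and -1.16. FvH4_3g38780, on chromosome 3 from 33059790 to 33066758, had 56.0 and 61.3 CPM in *FvVND4c* OX fruits against 189 and 173 CPM in EV fruits, and 59.5 and 41.0 CPM in *FvMYB46* OX fruits against 246 and 125 CPM in EV fruits. Here again *FvMYB46* EV replicate 1 was about as far above replicate 2 as for the leading pair, and the ratios were -1.62 and -1.87, the second being -1.30 without that replicate 1. FvH4_3g34270, on chromosome 3 from 29757731 to 29768550, had 76.6 and 59.8 CPM in *FvVND4c* OX fruits against 164 and 159 CPM in EV fruits, and 51.4 and 56.5 CPM in *FvMYB46* OX fruits against 110 and 104 CPM in EV fruits. It had the longest span of all 142 genes, 10820 bases, and averaged only 36.4 TPM in EV fruits. FvH4_6g29730, on chromosome 6 from 22953562 to 22955772, had 55.6 and 53.5 CPM in *FvVND4c* OX fruits against 96.8 and 97.6 CPM in EV fruits, and 55.2 and 57.2 CPM in *FvMYB46* OX fruits against 88.2 and 115 CPM in EV fruits. It was close to the threshold with both constructs (-0.83 and -0.85), and its OX levels were nearly equal in the 2 experiments.

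The 6 genes with the strongest joint lowering had EV means of 4.26 to 15.6 CPM. By level class, the median ratios with *FvVND4c* and *FvMYB46* were -1.56 and -1.87 for the 5 genes above 100 CPM. For the 8 under 1 CPM they were -1.05 and -0.90. The 0.5 CPM added to both means limits how low the ratio of a weakly expressed gene can be. These medians therefore do not show that highly expressed members were lowered more. FvH4_3g30050, on chromosome 3 from 23274342 to 23279610, had 1.46 and 1.23 CPM in *FvVND4c* OX fruits against 19.1 and 13.6 CPM in EV fruits, and 1.29 and 0.763 CPM in *FvMYB46* OX fruits against 20.1 and 9.58 CPM in EV fruits. Its log2 ratios of -3.19 and -3.33 were the lowest pair by the weaker of the ratios, and the second was -2.72 without *FvMYB46* EV replicate 1. FvH4_1g20470, on chromosome 1 from 12683430 to 12686124, had 0.258 and 1.13 CPM in *FvVND4c* OX fruits against 17.9 and 11 CPM in EV fruits, and 0.948 and 0.0848 CPM in *FvMYB46* OX fruits against 8.48 and 3.58 CPM in EV fruits. Several of its OX values rest on a few reads, and its *FvMYB46* ratio of -2.68 was -2.01 without *FvMYB46* EV replicate 1. FvH4_4g18710, on chromosome 4 from 22563188 to 22568986 and so just before the interval left out, had the lowest *FvVND4c* ratio of all members, -4.24, and -2.5 with *FvMYB46*, or -1.71 without *FvMYB46* EV replicate 1. It had 0.172 and 0.410 CPM in *FvVND4c* OX fruits against 19.2 and 9.59 CPM in EV fruits, and 0.345 and 0.678 CPM in *FvMYB46* OX fruits against 7.62 and 2.8 CPM in EV fruits.

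FvH4_5g20960 and FvH4_4g17980 behaved alike in both experiments. FvH4_5g20960, on chromosome 5 from 12608811 to 12609777, had 0.430 and 0.205 CPM in *FvVND4c* OX fruits against 7.48 and 3.62 CPM in EV fruits, and 0.345 and 0.509 CPM in *FvMYB46* OX fruits against 5.99 and 4.59 CPM in EV fruits. FvH4_4g17980, on chromosome 4 from 21946686 to 21949153, had 0.516 and 0.512 CPM in *FvVND4c* OX fruits against 6.31 and 4.71 CPM in EV fruits, and 0.172 and 0.170 CPM in *FvMYB46* OX fruits against 3.68 and 2.34 CPM in EV fruits. Their log2 ratios were between -2.39 and -2.89. FvH4_6g05510, on chromosome 6 from 3132544 to 3134400, was more variable without a regulator, as it had 0.774 and 0.717 CPM in *FvVND4c* OX fruits against 3.52 and 8.41 CPM in EV fruits, and 0.776 and 0.424 CPM in *FvMYB46* OX fruits against 14.5 and 1.71 CPM in EV fruits. Its *FvMYB46* ratio was -2.97 with both EV libraries and -1.01 without replicate 1 of the EV, and its *FvVND4c* ratio was -2.38, or -1.69 without replicate 2 of that EV. Among the other genes with both ratios at or under -2, FvH4_4g00700 stood out by its level, and it was picked after its values were seen. It had 17.5 and 19.1 CPM in *FvVND4c* OX fruits against 83.3 and 69.9 CPM in EV fruits, and 13.6 and 8.31 CPM in *FvMYB46* OX fruits against 137 and 67.7 CPM in EV fruits. A complete loss of counts in both libraries of an OX group was seen only in genes whose EV mean in the same experiment was under 1 CPM, namely FvH4_7g10640 with *FvVND4c* and FvH4_1g11830, FvH4_2g16020 and FvH4_3g36270 with *FvMYB46*. With the EV means taken as exact and 3 counts over the OX group, these were at least 4.35-fold, 3.13-fold, 2.94-fold and 3.31-fold lower. The EV means were only 0.610, 0.401, 0.378 and 0.424 CPM in this order, and their counting error is not in these values. The EV counts behind the last pair were themselves few and uneven, with 7 and 2 counts for FvH4_2g16020 and 9 and 1 for FvH4_3g36270 in replicates 1 and 2.

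**Figure D3:**
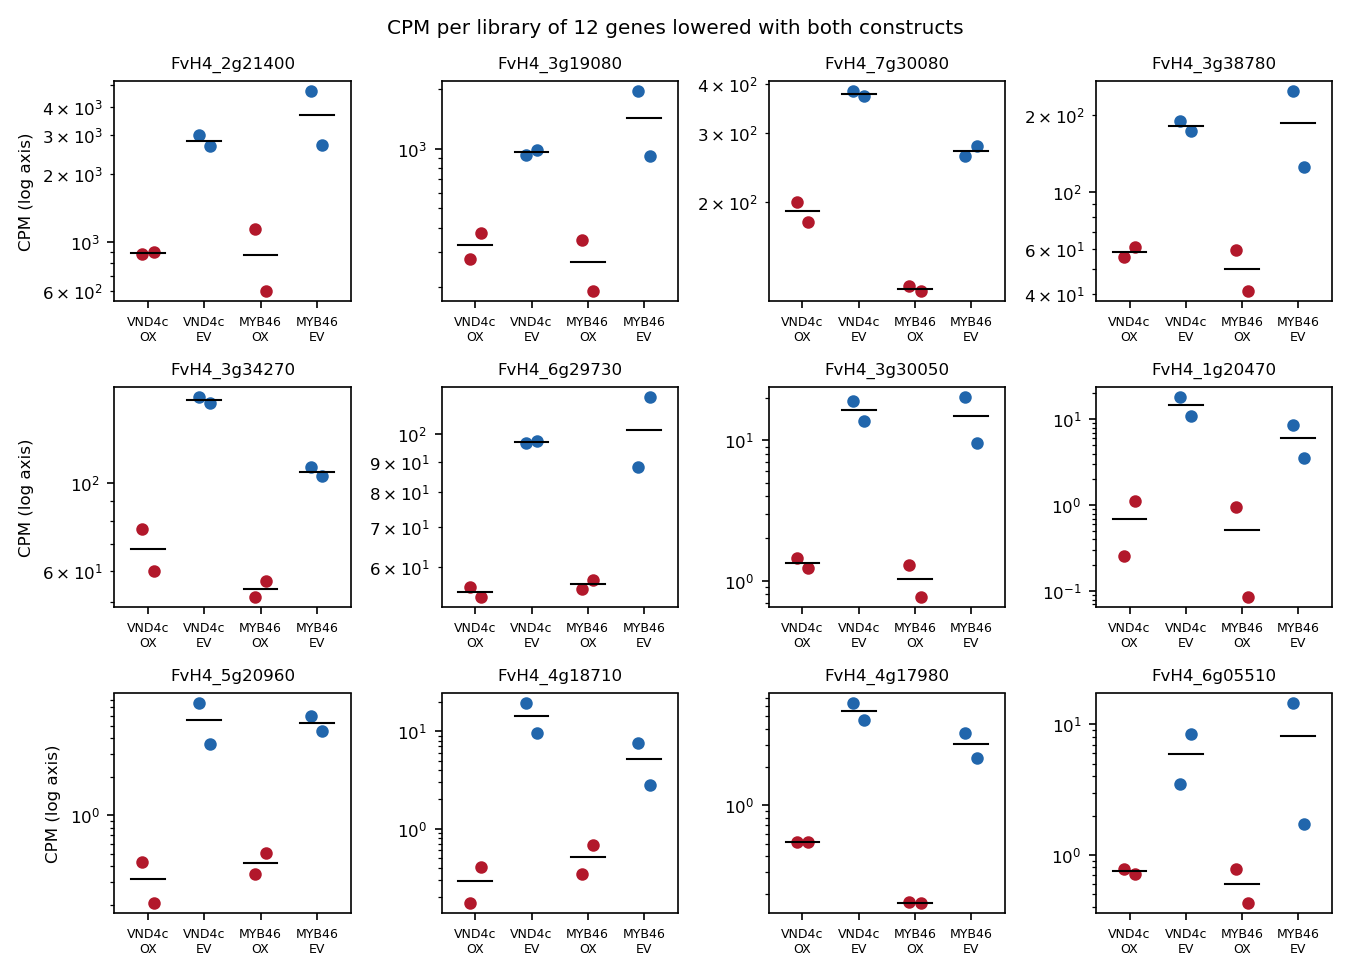
CPM on a log axis in each library, shown as points with the mean as a bar, for the 6 included genes with the highest EV level and the 6 with the strongest joint lowering, with OX in red and EV in blue. In every panel both OX points lie below both EV points of the same experiment, and *FvMYB46* EV points spread most in FvH4_6g05510, at 14.5 and 1.71 CPM.

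A feature that the rule did not name was an uneven *FvMYB46* EV pair. Replicate 1 exceeded replicate 2 by over 1.5-fold (after adding 0.5 CPM) for 69 of the 142 genes (48.6%), and replicate 2 exceeded replicate 1 by as much for 2. Among all genes considered the share was 13.0%, among the 649 genes lowered by this rule with *FvVND4c* but not *FvMYB46* it was 25.4%, and among the 862 lowered with *FvMYB46* but not *FvVND4c* it was 27.1%. The median log2 ratio of replicate 1 over replicate 2 was 0.57 for the 142 genes and 0.08 for all genes considered. In the *FvVND4c* EV pair the corresponding medians were 0.12 and 0.02. There, 15 of the 142 genes (10.6%) had replicate 1 over 1.5-fold above replicate 2, against 3.59% of the genes considered. The reverse held for 4 members (2.82%), against 2.05%. In the *FvMYB46* OX pair, replicate 1 was the higher by as much for 17 members (11.97%), against 3.82%. Replicate 2 was so for 6 (4.23%), against 1.65%. Uneven pairs among members were thus not particular to the *FvMYB46* EV, although its share was the largest given. A high value in replicate 1 of an EV raises the EV mean and thereby favours inclusion, and the part of this in the shares was not tested. Without replicate 1 of the *FvMYB46* EV, 47 of the 142 genes no longer met the rule, and 37 of these 47 were among the 69 uneven genes. All 142 genes kept a negative *FvMYB46* ratio without that library, but the median ratio was then -1.04 and the weakest was -0.14. Without replicate 2 the median was -1.49.

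**Figure D4:**
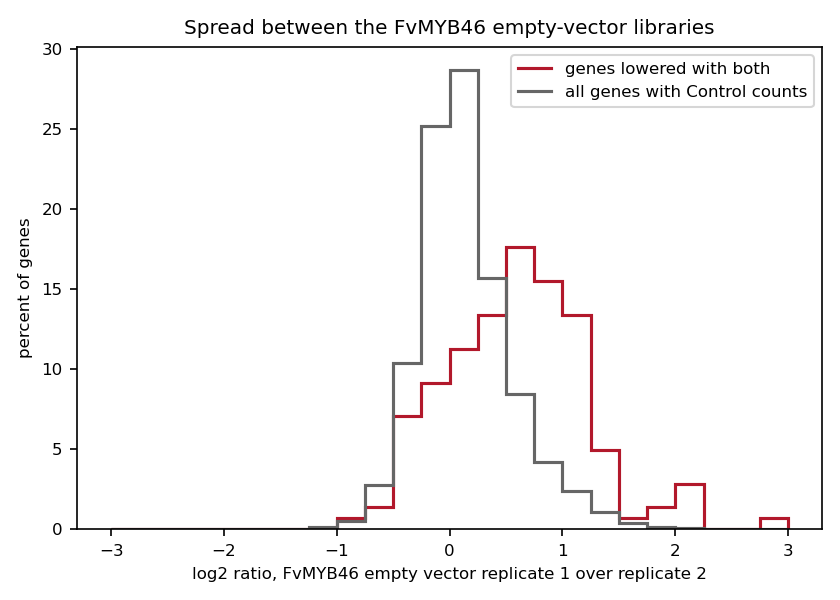
Histogram, in percent of genes, of the log2 ratio of CPM (plus 0.5) between replicates 1 and 2 of the *FvMYB46* empty vector, for the 142 included genes in red and the 21666 genes considered in grey. The red outline is shifted to the right, with medians of 0.57 against 0.08.

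With each of the 8 libraries left out in turn, between 95 and 136 of the 142 genes met the rule again, the lowest number without *FvMYB46* EV replicate 1 and the highest without *FvVND4c* EV replicate 2. Whichever library was left out, 66 genes met it. These included all 5 genes above 100 CPM in EV fruits and 24 of the 40 between 10 and 100 CPM, but 36 of the 89 between 1 and 10 CPM and 1 of the 8 under 1 CPM. The EV group of the other experiment was also taken as the reference, although it adds any difference between the experiments to the ratio. All of these libraries had entered the rule, so the counts describe the choice and nothing is read from them. Against the *FvMYB46* EV, the *FvVND4c* ratio was at or under -0.8 for 106 of the 142 genes (2.58% of the genes considered). Against the *FvVND4c* EV, the *FvMYB46* ratio was so for 126 (4.37% of the genes considered). With the exception of FvH4_6g01380, whose *FvVND4c* ratio was 0.43 against the *FvMYB46* EV, all ratios to the other EV were below 0. A ratio at or under -0.8 with both constructs held for 90 genes (0.789% of the genes considered). The rule was met by 53 genes with their own EV whichever library was left out and also with the other EV. FvH4_2g21400, FvH4_3g19080, FvH4_3g30050, FvH4_1g20470 and FvH4_4g18710 were among the 53. FvH4_7g30080 and FvH4_3g34270 were not, as their *FvVND4c* ratios against the *FvMYB46* EV were -0.51 and -0.64. FvH4_6g29730 met neither condition.

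It was next examined whether the members responded differently to the 2 regulators. The difference of the responses was tested in edgeR as an interaction over all 18766 genes. Of the 138 members tested, 6 had responses that differed at an adjusted p under 0.05 and a log2 difference over 1. This was 4.35%, compared with 9.62% of all genes tested. An unadjusted p under 0.05 was found for 15 members. The share over all genes was not counted, so nothing is read from the 15. Because the rule kept only genes lowered by both regulators and so removed those with opposite or one-sided responses, nothing is read from the share being below the background. The 6 consisted of 2 genes with a weaker lowering by *FvMYB46* (background 5.86%) and 4 with a stronger one (background 3.77%). The count rested on single libraries, as it was 2 without *FvVND4c* EV replicate 1 or without *FvMYB46* OX replicate 2, and 17 without *FvMYB46* EV replicate 2. That the other genes missed the threshold does not show that their responses were equal.

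FvH4_6g17260, on chromosome 6 from 11202519 to 11203765, was lowered far more by *FvVND4c*. It had 2.41 and 3.99 CPM in *FvVND4c* OX fruits against 61.9 and 47.5 CPM in EV fruits, and 24.7 and 15.4 CPM in *FvMYB46* OX fruits against 63.6 and 32.4 CPM in EV fruits. Its EV levels overlapped between the experiments, while both *FvMYB46* OX values were above both *FvVND4c* OX values. Its *FvMYB46* ratio was -1.24, but -0.68 without *FvMYB46* EV replicate 1, where the gene no longer met the rule. The log2 difference of responses, *FvMYB46* minus *FvVND4c*, was 2.74 (standard error 0.49, adjusted p = 0.00377 from edgeR), and it remained called with any library left out, at 2.34 to 3.26. FvH4_6g16230, on chromosome 6 from 10221913 to 10224864, showed the reverse. It had 10.6 and 14.2 CPM in *FvVND4c* OX fruits against 22.5 and 21.7 CPM in EV fruits, and 3.53 and 4.07 CPM in *FvMYB46* OX fruits against 17.5 and 17.0 CPM in EV fruits. This gene failed the rule when either of 2 libraries was left out. Without *FvVND4c* EV replicate 1 its *FvVND4c* ratio was -0.78. The *FvMYB46* OX libraries were the lowest of all, and the log2 difference was -1.46 (standard error 0.27, adjusted p = 0.00423 from edgeR), called again with any library left out, at -1.73 to -1.22.

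The other 4 differences were less firm. FvH4_3g15571, on chromosome 3 from 9765105 to 9766210, had 19.9 and 21.4 CPM in *FvVND4c* OX fruits against 43.4 and 39.8 CPM in EV fruits, and 19.1 and 13.1 CPM in *FvMYB46* OX fruits against 111 and 58.5 CPM in EV fruits. Its difference of -1.5 (adjusted p = 0.0182 from edgeR) lay more in the EV than in the OX levels and was called in 4 of 8 fits with a library left out, being -1.02 at its weakest. FvH4_6g32640, on chromosome 6 from 25670166 to 25673569, differed by -1.37 (adjusted p = 0.0142 from edgeR), called in 6 of 8 such fits. FvH4_7g21640, on chromosome 7 from 17253652 to 17255150, had 1.20 and 1.74 CPM in *FvVND4c* OX fruits against 2.98 and 3.20 CPM in EV fruits, and 0.689 and 0.763 CPM in *FvMYB46* OX fruits against 6.77 and 4.52 CPM in EV fruits. At these low levels its difference of -1.97 (adjusted p = 0.0240 from edgeR) was called in 3 of 8 such fits. FvH4_4g08000, on chromosome 4 from 7579651 to 7581187, had 0.258 and 0.205 CPM in *FvVND4c* OX fruits against 4.87 and 6.23 CPM in EV fruits, and 0.603 and 0.424 CPM in *FvMYB46* OX fruits against 2.48 and 2.02 CPM in EV fruits. Its difference of 2.29 (adjusted p = 0.0426 from edgeR) was called in 1 of 8 such fits. FvH4_4g18710, described above, had a difference of nearly the same size, 2.2, that did not pass the test (adjusted p = 0.246 from edgeR). The adjusted p over the fits with a library left out and the other settings ranged up to 0.0868, 0.0868, 0.107 and 0.209 for the 4 called genes in the order given.

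The EV groups of the 2 experiments were then compared with each other. The rule did not make this comparison, but both EV means entered the ratios that chose the members. The share of members that differ is therefore given as a description. Of the 138 members tested, 7 differed (5.07%, compared with 2.24% of all genes). Of these, 1 was higher (background 0.618%) and 6 were lower (background 1.62%) in the *FvMYB46* EV. An unadjusted p under 0.05 from edgeR was found for 39 members. The share over all genes was not counted, so nothing is read from the 39. The median log2 difference was -0.01 for the members and 0.01 for all genes tested. The number of members called fell without either *FvVND4c* EV library and rose without either *FvMYB46* EV library. Such a fit leaves 1 library in a group. The groups also share 1 estimate of the spread, although their replicate chi-square over degrees of freedom ran from 2.44 to 16.5. The shares were higher among genes lowered by only 1 construct under the same rule. The *FvMYB46* EV was called lower for 88 of 579 tested genes lowered with *FvVND4c* only and higher for none, and called higher for 56 of 806 lowered with *FvMYB46* only and lower for none. Those directions follow from how such genes were chosen, since a high EV level in 1 experiment gives a low ratio there.

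FvH4_6g01380, on chromosome 6 from 767004 to 769191, had the largest EV difference of all members. It had 0.948 and 0.763 CPM in *FvMYB46* OX fruits against 3.34 and 3.89 CPM in EV fruits, and 5.25 and 4.81 CPM in *FvVND4c* OX fruits against 16.2 and 21.5 CPM in EV fruits. The *FvMYB46* EV level was thus below the *FvVND4c* OX level, with a log2 difference of the EV groups, *FvMYB46* minus *FvVND4c*, of -2.32 (standard error 0.22, adjusted p = 1.85e-04 from edgeR), called again with any library left out. Nevertheless its log2 ratios to its own EV were alike, -1.60 with *FvMYB46* and -1.81 with *FvVND4c*, and their difference of -0.29 did not pass the test (adjusted p = 0.658 from edgeR). FvH4_3g25370, on chromosome 3 from 18300230 to 18301539, had 1.12 and 0.763 CPM in *FvMYB46* OX fruits against 4.62 and 5.53 CPM in EV fruits, and 1.12 and 2.25 CPM in *FvVND4c* OX fruits against 15.2 and 15.3 CPM in EV fruits. Its OX levels met at about the same low value from EV levels that differed by -1.53 on the log2 scale (adjusted p = 0.00671 from edgeR), called in 6 of 8 fits with a library left out. FvH4_6g28930 was the weakest of these genes in level, with 0.259 and 0.0848 CPM in *FvMYB46* OX fruits against 0.942 and 0.701 CPM in EV fruits, and 0.430 and 0.512 CPM in *FvVND4c* OX fruits against 2.89 and 2.10 CPM in EV fruits. Its EV groups differed by -1.54 (adjusted p = 0.0466 from edgeR), a call that was kept in 1 of 8 fits with a library left out. The others were FvH4_6g09960 (-1.36, adjusted p = 0.00402 from edgeR, 7 of 8), FvH4_7g00720 (-1.01, 0.00481, 5 of 8), FvH4_4g08000 (-1.25, 0.0268, 3 of 8) and, in the other direction, FvH4_3g15571 (1.07, 0.0317, 5 of 8). For FvH4_3g15571 the value without *FvMYB46* EV replicate 1 was 0.59.

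Some differences between the EV groups were large but rested on *FvMYB46* EV replicate 1 and did not pass the test. FvH4_6g36630, on chromosome 6 from 28821796 to 28824931, had 4.91 and 5.43 CPM in *FvMYB46* OX fruits against 90.8 and 20.8 CPM in EV fruits, and 4.39 and 4.71 CPM in *FvVND4c* OX fruits against 14.6 and 16.2 CPM in EV fruits. Its EV difference was 1.88 on the log2 scale (adjusted p = 0.0550 from edgeR), and 0.52 without that library. Its *FvMYB46* ratio of -3.31 was then -1.91. FvH4_2g24901, on chromosome 2 from 20244213 to 20246889, had 0.603 and 0.594 CPM in *FvMYB46* OX fruits against 20.4 and 4.20 CPM in EV fruits, and 0.602 and 1.23 CPM in *FvVND4c* OX fruits against 3.07 and 3.37 CPM in EV fruits (EV difference 1.96, adjusted p = 0.0915 from edgeR). Without that library its EV difference was 0.48, and its *FvMYB46* ratio was -2.10 rather than -3.54. In both genes *FvMYB46* EV replicate 1 lay far above the other EV libraries. The 4 OX libraries ran from 4.39 to 5.43 CPM for FvH4_6g36630 and from 0.594 to 1.23 CPM for FvH4_2g24901.

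**Figure D5:**
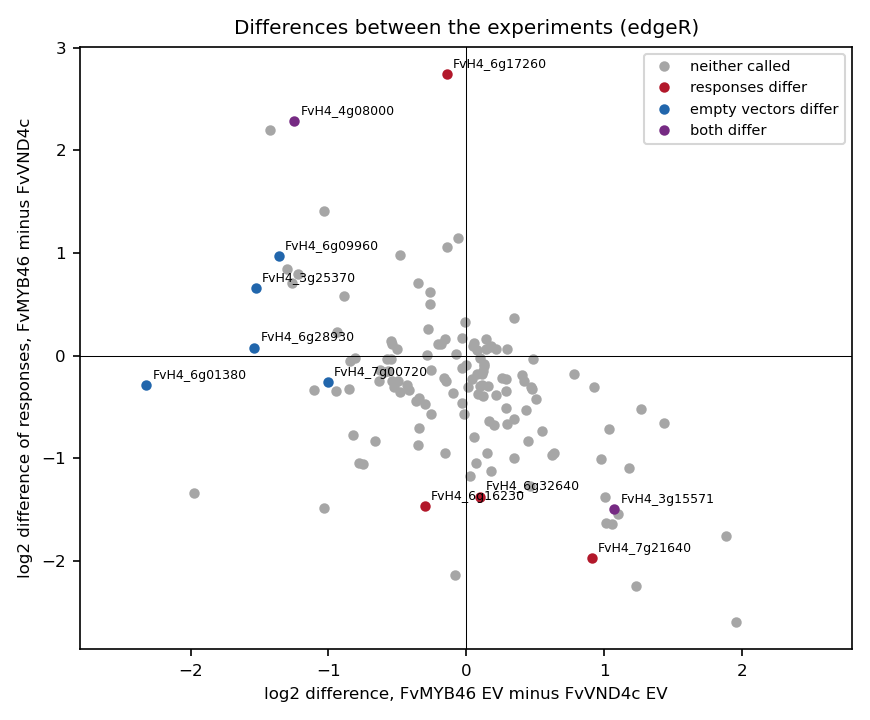
Log2 difference of responses, *FvMYB46* minus *FvVND4c*, on the vertical axis against the log2 difference of the empty vectors, *FvMYB46* EV minus *FvVND4c* EV, on the horizontal axis, for the 138 members tested in edgeR, with called genes coloured and given by identifier. Both axes contain the EV levels with opposite signs, so a downward slope is built in. FvH4_6g17260 at 2.74 and FvH4_6g16230 at -1.46 are apart on the vertical axis with EV differences of -0.14 and -0.30.

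The members were scattered over all 7 chromosomes, with 13 to 29 genes on each, or from 0.498% of the genes considered on chromosome 5 to 0.873% on chromosome 7. A few lay next to each other. In the order of gene starts, 9 members (6.34%) were immediate neighbours of another member, whereas 0.845% of all genes considered had a member next to them. Within 20 kb of the start of another member were 11 members (7.75%), against 2.61% of the genes considered. Neighbouring genes can be tandem copies that share reads, and whether these are copies was not checked. The longest run was of 3 genes on chromosome 7 between 20190360 and 20198786, FvH4_7g26860, FvH4_7g26870 and FvH4_7g26890, the first on the minus and the others on the plus strand. FvH4_7g26890 had 0.516 and 0.205 CPM in *FvVND4c* OX fruits against 3.61 and 2.78 CPM in EV fruits, and 0.431 and 0.170 CPM in *FvMYB46* OX fruits against 8.99 and 3.5 CPM in EV fruits. FvH4_7g26870 had 1.46 and 1.54 CPM in *FvVND4c* OX fruits against 5.68 and 3.53 CPM in EV fruits, and 1.98 and 1.78 CPM in *FvMYB46* OX fruits against 5.48 and 4.52 CPM in EV fruits. FvH4_7g26860 was lower still, with 0.860 and 0.512 CPM in *FvVND4c* OX fruits against 1.71 and 2.19 CPM in EV fruits, and 1.12 and 0.254 CPM in *FvMYB46* OX fruits against 1.80 and 1.48 CPM in EV fruits. The ratios of the 3 genes differed, with -2.10, -1.35 and -1.05 with *FvVND4c* and -3.08, -1.21 and -0.85 with *FvMYB46* in this order. Without *FvMYB46* EV replicate 1 the -3.08 of FvH4_7g26890 was -2.32.

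The remaining neighbours formed 3 pairs. FvH4_3g24570 and FvH4_3g24571, both on the minus strand of chromosome 3 between 17626895 and 17640364, had similar ratios, -1.63 and -1.81 with *FvVND4c* and -1.62 and -1.45 with *FvMYB46*. The first had 2.32 and 1.74 CPM in *FvVND4c* OX fruits against 7.57 and 7.07 CPM in EV fruits, and 1.29 and 1.19 CPM in *FvMYB46* OX fruits against 4.37 and 5.29 CPM in EV fruits. The second had 4.99 and 6.66 CPM in *FvVND4c* OX fruits against 24.2 and 19.0 CPM in EV fruits, and 5.95 and 6.02 CPM in *FvMYB46* OX fruits against 20.6 and 13.8 CPM in EV fruits. The other pairs stood on opposite strands. FvH4_3g06330 and FvH4_3g06340, on chromosome 3 between 3634241 and 3638844, had ratios of -1.14 and -1.17 with *FvVND4c* and -1.01 and -1.16 with *FvMYB46*. FvH4_6g43730 and FvH4_6g43740, on chromosome 6 between 33793373 and 33798500, had ratios of -1.30 and -1.16 with *FvVND4c* and -1.18 and -1.03 with *FvMYB46*. None of these 9 genes overlapped another gene.

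The spans of the members were close to those of other genes, with a median of 2611 bases (quartiles 1513 and 3804) against 3036 bases for all genes considered (quartiles 1851 and 4633). The median was 2468 bases for genes lowered with *FvVND4c* only and 2238 bases for those lowered with *FvMYB46* only. A span that overlapped another gene was found for 10 members (7.04%), on the opposite strand in each case, against 13.8% of the genes considered. Whether counting used the strand is not given, so that reads of these 10 genes cannot be assigned with certainty. In level the members stood between the other lowered genes, with EV medians of 5.56 CPM for the 142 members, 3.07 CPM for genes lowered with *FvVND4c* only and 14.8 CPM for those lowered with *FvMYB46* only. These medians are a description of lists of which each was chosen by its own ratios.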

How the data were processed

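Reads had been trimmed by the authors (fastp 0.20.1), aligned to *F. vesca* v4.0.a2 (HISAT2 2.2.1), freed of duplicates (SAMtools 1.9) and counted by gene (featureCounts 2.0.3). The deposited counts are whole numbers. The deposited TPM files hold 17698 genes, for which the authors had divided the counts by the whole gene span and rescaled them to a fixed sum. This was checked. How those genes were picked is not given. They list 122 of the 142 genes.

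CPM was computed from column sums. edgeR 4.0.16 in R 4.3.3 (limma 3.58.1) was run on genes kept by filterByExpr. Its quasi-likelihood test used TMM factors and a single model of 4 groups and 8 libraries, with Benjamini-Hochberg adjustment over 18766 genes and calls at adjusted p under 0.05 and absolute log2 fold over 1. The 4 members not tested had EV means of 0.493 to 0.771 CPM. The standard error is the log2 difference over the square root of F, which is approximate. The fit was tested on simulated data. The labels list 2 libraries per group, fewer than the replicates stated in the methods.

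The members and the lists were chosen with earlier results of these data known. Genes were given by identifier by a fixed rule: the 6 with the highest EV mean, the 6 lowest by the weaker ratio with at least 1 CPM in both EV groups, the 3 largest differences in each direction of responses and of EV groups with called genes taken first, the longest run of neighbours and the 2 nearest genes on each side of the threshold. Genes listed beyond this rule were chosen after their values were seen. Alternatives were DESeq2 1.42.0, RLE scaling, no filter or at least 10 counts in every library, no fold threshold, the replicate number as a block, the 4 libraries of a comparison, other pseudocounts, scalings, units and EV groups in the rule, and leaving out each library. With 2 libraries against 2, no permutation test of a single gene can pass 0.05. No sequence is shown, as no sequence of this annotation was used here.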

Additional observations from a re-analysis of the deposited data

Results flagged for a closer look

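The responses of members to the regulators differed, by the test of the difference in edgeR, for 6 genes. This was 4.35% of the 138 members tested, compared with 9.62% of all genes tested, and nothing is read from the share. Except for FvH4_6g17260 and FvH4_6g16230, these differences were less firm, as described above. The log2 differences of *FvMYB46* minus *FvVND4c* were 2.74 for FvH4_6g17260 and 2.29 for FvH4_4g08000, where *FvMYB46* lowered the gene less, and -1.97 for FvH4_7g21640, -1.5 for FvH4_3g15571, -1.46 for FvH4_6g16230 and -1.37 for FvH4_6g32640, where it lowered the gene more. Groups of 2 libraries are too small for a check of single outlying libraries.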

How the results depend on the processing

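Under the rule, 353 genes were included with a pseudocount of 0.1 CPM, all 142 among them, and 219 against the mean of all 4 EV libraries, 122 of the 142 among them. With TMM-scaled totals 116 were included, and with a pseudocount of 1 CPM 95 were. Leaving out a library gave 107 to 180 genes. At least 10 counts in every library kept 73 of the members in the fit, of which 33 were called lower with *FvVND4c* and 58 with *FvMYB46*. Leaving out a library gave 38 to 81 and 66 to 116 such calls, 2 to 17 differences of responses and 1 to 18 EV differences. The EV differences were 11 with no fold threshold, 4 with no filter, 3 with at least 10 counts and 13 with the replicate block. With this block the calls were 75 with *FvVND4c*, 117 with *FvMYB46* and 8 differences of responses. Nothing in the labels pairs libraries by number, and deviations of same-numbered libraries correlated by 0.0989 to 0.195 over the 6 pairs of groups. The 68 fitted values of single genes were recomputed with RLE scaling, the replicate block, DESeq2 and each library left out, which gave 748 values, of which 671 kept their side of the threshold, 54 lost it, 23 passed it and none changed direction. Members at a few CPM rest on few reads, which limits their ratios.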
